A study of Mus musculus with 6 samples.

Results

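The genes described here encode the machinery that copies DNA in the S phase of the cell cycle. They were taken from a list of 50 mouse gene symbols, matched by name to the genes of the deposited transcript files. Of these 50 symbols, 49 were found, and all 49 passed the filter on low values, among 15507 genes tested. The symbol Claspn matched no gene name. Claspin's current symbol, Clspn, was in the files and is reported with other replication genes. The material was total RNA of GL261, a mouse glioma line grown in culture, sequenced in bulk after library preparation with a stranded total RNA kit. There were 2 groups of 3 libraries each, taken 4 h after 1 uM sodium chloride, the control salt (chloride 1, 2 and 3), or after 1 uM sodium propionate, a short-chain fatty acid salt (propionate 1, 4 and 5). Whether the 3 libraries of a group were separate cultures is not in the labels. The p-values therefore rest on the spread between these samples alone, and that spread may be technical. In bulk RNA, fewer cells of a kind and less RNA per cell cannot be told apart, so a level of a replication gene reflects both the number of cycling cells and the transcripts in each.

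Replication begins when the origin recognition complex and the loaders Cdc6 and Cdt1 place the MCM helicase on DNA in G1, a step that geminin (Gmnn) blocks later in the cycle. In S phase the kinase Cdc7 with its activator Dbf4, together with Cdc45 and the GINS complex, turns the loaded helicase into a moving fork, where primase and the polymerases alpha, delta and epsilon synthesise DNA with the sliding clamp Pcna, its loader RFC and the single-strand binding protein RPA. Many of these genes are classic targets of the E2F transcription factors, which drive entry into S phase, and their transcripts are used as marks of proliferating cells, glioma cells included.

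The promoters of 4 genes are printed first because they show a sequence feature that did not enter the choice of members. It was found in 18 of the 41 members with a window. Windows from 250 bases before to 50 bases after each transcript start came from RefSeq (GRCm38.p6), and 41 of the 49 genes matched a window by symbol. A window was searched on both strands for the E2F-type motifs TTTCGCGC, TTTGGCGC, TTTCCCGC and TTTGGCGG, which can overlap one another, and for CCAAT, the motif of the factor NF-Y. Below are the 250 bases upstream of the start on the gene's strand, 5′ to 3′, with the E2F-type matches in capitals. They lie at chr8:75109259-75109508 on the plus strand for Mcm5, chr1:128359706-128359955 on the minus strand for Mcm6, chr4:108579204-108579453 on the plus strand for Orc1 and chrX:93632156-93632405 on the minus strand for Pola1. They stand for the helicase, origin recognition and the priming polymerase, and each RefSeq start lies within 100 bases of the start of the gene's leading transcript model in these libraries.
Mcm5: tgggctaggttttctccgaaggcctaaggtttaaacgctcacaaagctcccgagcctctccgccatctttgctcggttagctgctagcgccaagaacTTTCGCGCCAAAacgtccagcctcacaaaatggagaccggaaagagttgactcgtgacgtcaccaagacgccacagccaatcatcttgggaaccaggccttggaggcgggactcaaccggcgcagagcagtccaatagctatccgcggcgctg
Mcm6: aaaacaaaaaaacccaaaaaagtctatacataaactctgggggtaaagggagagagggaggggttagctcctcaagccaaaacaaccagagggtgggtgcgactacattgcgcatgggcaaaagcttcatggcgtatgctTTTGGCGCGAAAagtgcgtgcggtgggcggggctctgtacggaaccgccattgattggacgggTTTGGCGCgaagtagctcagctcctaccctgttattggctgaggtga
Orc1: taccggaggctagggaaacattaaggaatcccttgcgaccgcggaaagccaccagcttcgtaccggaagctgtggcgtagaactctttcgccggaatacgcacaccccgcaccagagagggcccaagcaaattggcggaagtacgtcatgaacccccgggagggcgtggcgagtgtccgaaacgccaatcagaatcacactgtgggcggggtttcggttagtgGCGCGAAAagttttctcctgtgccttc
Pola1: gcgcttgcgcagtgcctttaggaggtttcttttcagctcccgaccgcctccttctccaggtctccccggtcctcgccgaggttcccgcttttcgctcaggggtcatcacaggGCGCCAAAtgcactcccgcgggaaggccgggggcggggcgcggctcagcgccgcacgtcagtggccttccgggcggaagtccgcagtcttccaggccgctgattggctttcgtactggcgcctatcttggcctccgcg
In Mcm5 the capitals hold an overlapping pair of matches, one on each strand, and in Mcm6 they hold such a pair and a further match nearer the start. An E2F-type motif was in 18 of the 41 members with a window (43.9%). It was in 730 of all 27025 genes with a window (2.70%) and in 501 of the 9244 tested ones (5.42%). A single window was given for 34 of the 41 members, and for the others a match in any window counted. At least 2 matches were in 6 members (14.6%), against 0.126% of all genes with a window and 0.325% of tested ones. CCAAT was in 23 members (56.1%), against 41.1% of all genes with a window and 44.4% of tested ones. Both motifs were found in 10 members (24.4%), against 2.60% of tested genes, whether in the same window or in different windows of a gene. In Orc4 they lay in different windows. The median GC content, by the first window of each gene, was 60% in members, 61.0% in tested genes and 52.7% in all genes with a window. The nearest RefSeq start lay within 100 bases of the start of the leading model for 35 of the 41 members, and for 15 of the 18 with an E2F-type match. Cdc6, Gins3 and Mcm7 were the exceptions among the 18. A match is a description of letters, not a bound site. By role, E2F-type matches were found in the helicase genes Mcm3, Mcm5, Mcm6 and Mcm7, in Orc1, Orc3, Orc4, Cdt1, Cdc6 and Gins3, in the polymerase genes Pola1, Pola2, Pold1, Pold3 and Pole2, and in Rfc3, Rpa1 and Lig1.

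**Figure D1:**
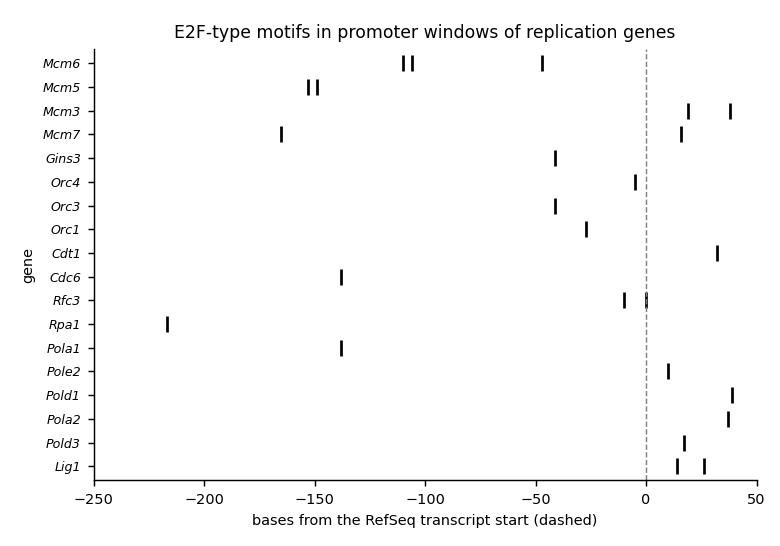
E2F-type matches in the promoter windows of the 18 replication genes that held one, 1 row per gene. The x axis is the distance in bases from the RefSeq transcript start (dashed line), ticks mark where each match begins, and the 3 matches of Mcm6 and the pair in Mcm5 lie upstream of the start.

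No replication gene passed the test between propionate and chloride. The limma test called 0 of the 49 at an adjusted p under 0.05, and across all genes the called share was 0.00645% (1 of 15507). The smallest adjusted p among members was 0.913, and 0 members had an unadjusted p under 0.05, where 5.15% of all genes did (2.16% higher and 2.99% lower with propionate). Limma's 95% intervals bound the size of the differences after scaling. For 48 of the 49 genes (98.0%) the whole interval lay within a 1.5-fold change in either direction, and for all 49 within a 2-fold change, against 78.0% and 93.7% of all genes. The shares for genes of like level were not computed. The median SE was 0.07 for members, 0.11 for all genes and 0.08 for genes in the members' range of levels. By sign alone 38 members were higher and 11 lower with propionate. The median member differed by 0.04 on the log2 scale, beside 0.01 for all genes, of which 51.8% were higher. Among the 8229 tested genes within the members' range of levels the median was 0.02 and 58.5% were higher. The split depended on scaling, since with TPM as deposited 6 members were higher and 43 lower, with a median of -0.06 beside -0.08 for all genes. The groups did not overlap for 3 members (6.12%), beside 11.7% of all genes. These were Prim2 and Fen1, higher with propionate (5.27% of all genes), and Pole, lower (6.48% of all genes).

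**Figure D2:**
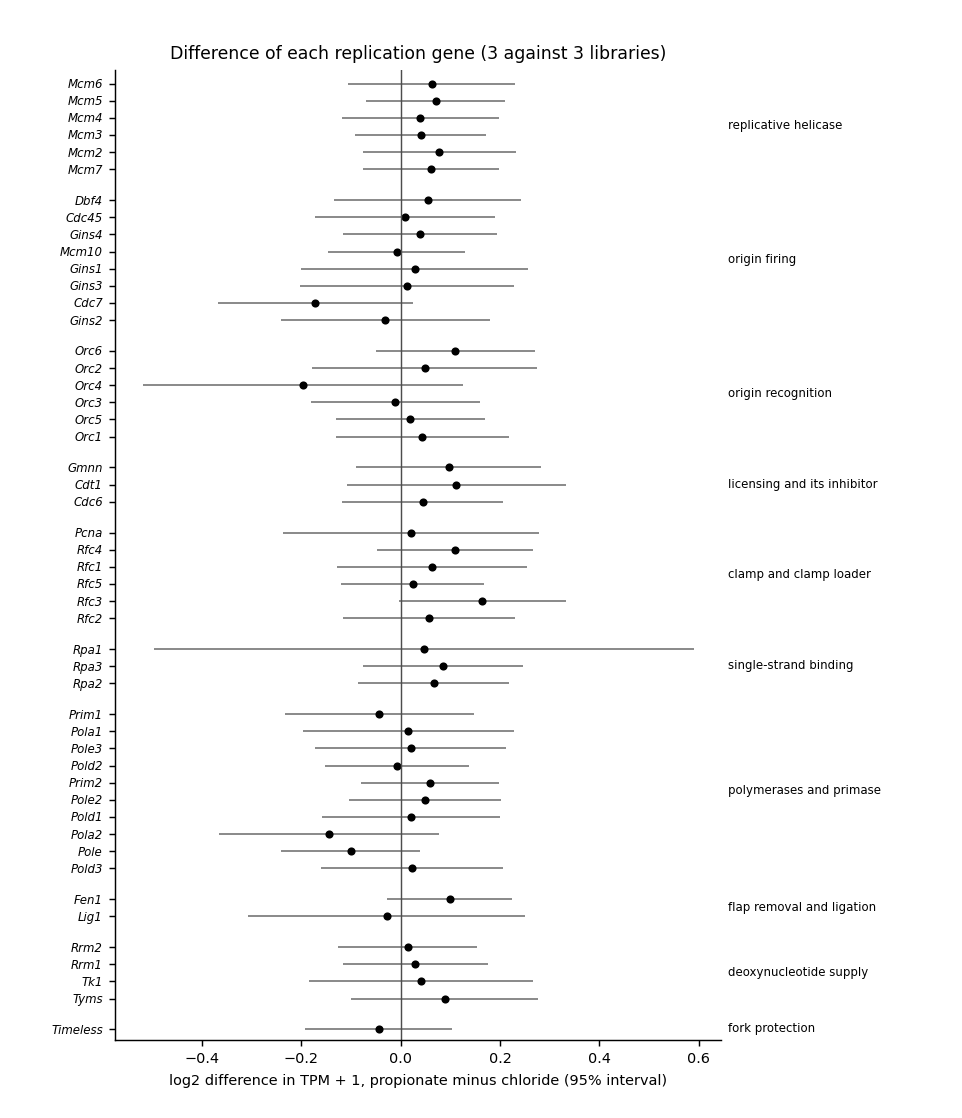
Log2 difference in TPM + 1, propionate minus chloride, for 49 replication genes grouped by role (points), with limma's 95% interval (bars) from 3 against 3 libraries. Every interval crosses 0, and those of Rpa1 and Orc4 are the widest.

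The transcripts of this machinery were abundant and steady. Levels are in TPM, a share of all transcripts corrected for length, summed over the models of a gene and scaled between libraries. The median member stood at 66.0 TPM, against 12.6 TPM for all tested genes, and the lowest member lay at the 45.3 percentile of tested genes. Member means ran over a 42.7-fold range, from 9.96 TPM for Gins2 to 425 TPM for Pcna. The median SD over the 6 libraries was 0.08 on the log2 scale for members, 0.13 for all genes and 0.10 for genes in the same range of levels. At least 1486 reads per gene and library, estimated from coverage, lay behind each level.

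**Figure D3:**
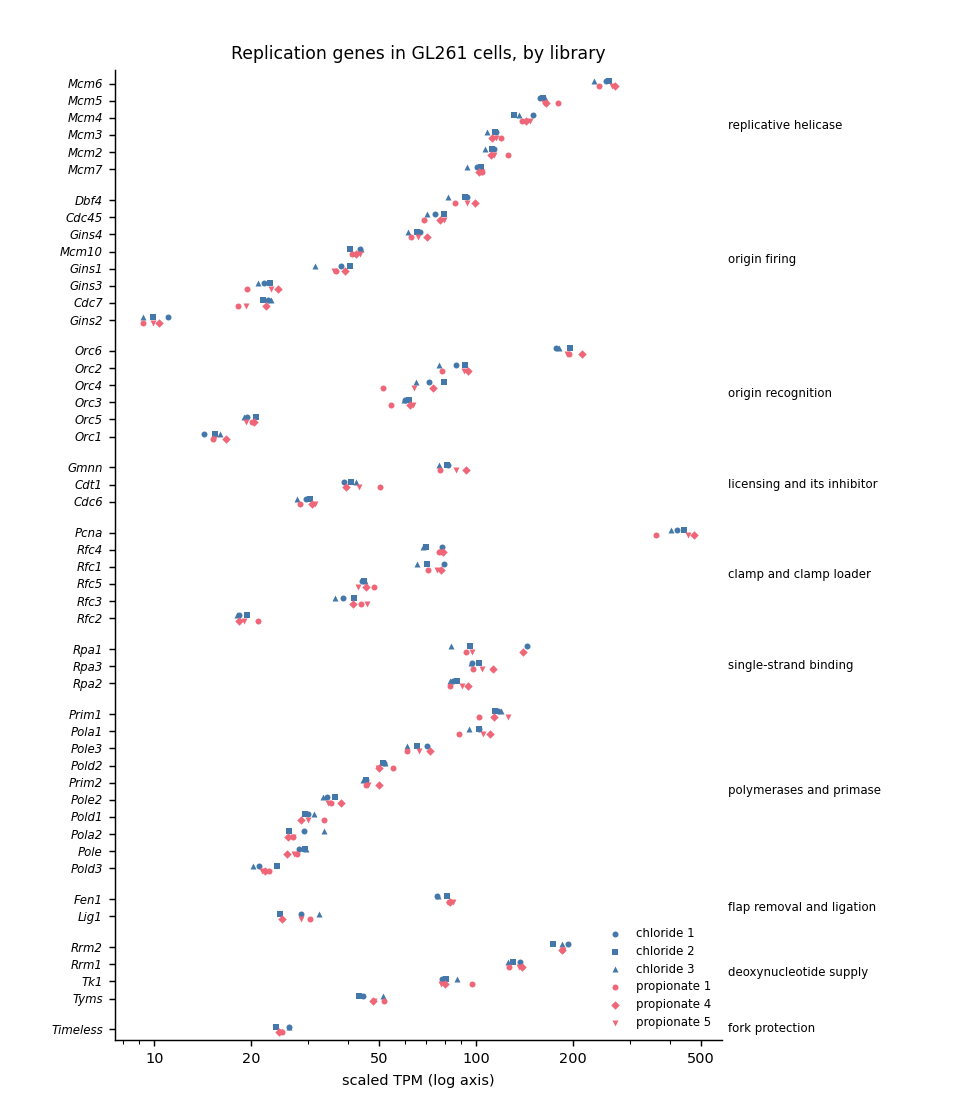
Scaled TPM (log axis) of each of the 49 replication genes in the 6 libraries, with chloride in blue and propionate in red, 1 marker shape per replicate number, grouped by role. The groups lie over each other in nearly every row, while genes differ from 9.96 TPM (Gins2) to 425 TPM (Pcna).

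The origin recognition complex marks the places where replication can start. Its 6 subunits differed 12.4-fold in level, from Orc1 to Orc6. Orc1, the subunit whose amount changes most through the cell cycle, stood at 14.3, 15.4 and 16.1 TPM with chloride and 15.2, 16.7 and 15.3 TPM with propionate. Orc6 stood at 177, 196 and 181 TPM with chloride and 194, 212 and 192 TPM with propionate. All propionate libraries lay above chloride 1 and chloride 3 for Orc6, and chloride 2 lay among them, and the log2 difference was 0.11 ± 0.07 (SE). Orc4, one of the subunits that bind ATP, stood at 71.4, 79.4 and 65.2 TPM with chloride and 51.4, 73.7 and 64.3 TPM with propionate. Propionate 1 was the lowest library and propionate 4 lay within the chloride range, so the log2 difference of -0.20 ± 0.14 (SE), did not separate the groups (limma adjusted p = 0.913). It was -0.06 without propionate 1 and -0.07 with voom on estimated reads. Orc5 was among the 3 steadiest members, at 19.4, 20.7 and 19.0 TPM with chloride and 20.1, 20.5 and 19.3 TPM with propionate, with a log2 difference of 0.019 ± 0.06 (SE). By sign 4 subunits were higher and 2 lower with propionate (1 and 5 with TPM as deposited), and none passed the test.

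Licensing loads the helicase once per cycle, through Cdc6 and Cdt1, and geminin inhibits Cdt1. Cdc6 stood at 29.7, 30.4 and 27.8 TPM with chloride and 28.3, 30.8 and 31.6 TPM with propionate, with overlapping groups. Gmnn stood at 81.9, 81.3 and 76.4 TPM with chloride and 77.2, 93.0 and 86.7 TPM with propionate. Propionate 4 and propionate 5 were above every chloride library and propionate 1 was not, with a log2 difference of 0.10 ± 0.08 (SE) (limma adjusted p = 0.927). The 3 genes summed to 151, 152 and 147 TPM with chloride and 156, 163 and 162 TPM with propionate, a gap between the groups that was not there with TPM as deposited (164, 151 and 151 TPM with chloride and 151, 158 and 156 TPM with propionate).

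The MCM helicase is a ring of 6 related subunits, Mcm2 to Mcm7, that unwinds DNA at the fork. Their levels lay close together, within 2.50-fold of each other. Mcm6 was the highest, at 254, 258 and 232 TPM with chloride and 241, 271 and 265 TPM with propionate. Mcm7, the lowest, stood at 101, 103 and 93.4 TPM with chloride and 104, 102 and 104 TPM with propionate. Chloride 3 was the lowest library for both, and the other libraries of the groups overlapped. Mcm3, among the 3 steadiest members, stood at 115, 114 and 108 TPM with chloride and 119, 112 and 115 TPM with propionate. All 6 subunits were higher with propionate by sign, by 0.04 to 0.08 on the log2 scale, but all 6 were lower with TPM as deposited, and none passed the test. Their sum was 892, 880 and 838 TPM with chloride, or 870 ± 27.9 TPM (SD, n = 3), and 909, 903 and 908 TPM with propionate, or 907 ± 3.07 TPM (SD, n = 3). The sums did not overlap after scaling, but with TPM as deposited they did, at 971, 871 and 863 TPM with chloride and 883, 872 and 877 TPM with propionate.

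Origin firing needs the Cdc7 kinase and a set of factors that join the helicase. Cdc7 stood at 22.6, 21.7 and 23.1 TPM with chloride and 18.2, 22.2 and 19.3 TPM with propionate. Propionate 1 and propionate 5 were below every chloride library, propionate 4 lay among them, and the log2 difference was -0.17 ± 0.08 (SE) (limma unadjusted p = 0.0782, adjusted p = 0.913). It was -0.11 without propionate 1. Its activator Dbf4 stood at 93.9, 92.1 and 81.7 TPM with chloride and 85.8, 98.9 and 93.4 TPM with propionate, with overlapping groups and a log2 difference of 0.05 ± 0.08 (SE). Gins2, a subunit of the GINS complex and the lowest member, stood at 11.1, 9.94 and 9.25 TPM with chloride and 9.23, 10.3 and 9.94 TPM with propionate, with a log2 difference of -0.03 ± 0.09 (SE). Mcm10, which helps the helicase start, had the smallest spread of all members, at 43.5, 40.5 and 43.7 TPM with chloride and 41.2, 42.3 and 43.5 TPM with propionate, and a log2 difference of -0.0083 ± 0.06 (SE). Among the 8 genes of this step 5 were higher and 3 lower by sign (0 and 8 with TPM as deposited), and none passed the test.

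Polymerase alpha with primase starts each new strand, polymerase epsilon extends the leading strand and polymerase delta the lagging one. Pole, the catalytic subunit of polymerase epsilon, was the member with all propionate libraries lower, at 28.2, 29.4 and 29.6 TPM with chloride and 27.9, 25.9 and 27.3 TPM with propionate. The gap between the groups was small, between 27.9 TPM in propionate 1 and 28.2 TPM in chloride 1, and the log2 difference was -0.10 ± 0.06 (SE) (limma adjusted p = 0.913). Pola2, the regulatory subunit of polymerase alpha, stood at 29.1, 26.3 and 33.8 TPM with chloride and 27.0, 26.1 and 26.9 TPM with propionate, with chloride 3 the highest and chloride 2 among the propionate libraries, and a log2 difference of -0.14 ± 0.09 (SE). It was -0.05 without chloride 3 and -0.23 without chloride 2. The primase subunits went different ways by sign. Prim1, the catalytic subunit, stood at 117, 115 and 119 TPM with chloride and 102, 113 and 126 TPM with propionate, with propionate libraries on both sides of the chloride ones and a log2 difference of -0.04 ± 0.08 (SE) that ranged from -0.12 to 0.03 when a library was left out. Prim2, the large subunit, stood at 45.4, 45.5 and 44.7 TPM with chloride and 45.6, 49.9 and 46.0 TPM with propionate. Its groups did not overlap, though propionate 1 lay barely above chloride 2, and with TPM as deposited the log2 difference changed from 0.06 to -0.04. Pold3, an accessory subunit of polymerase delta, was the lowest of the 10 genes, at 21.1, 24.1 and 20.3 TPM with chloride and 22.7, 22.1 and 21.6 TPM with propionate. By sign 6 of the 10 were higher and 4 lower (0 and 10 with TPM as deposited), and none passed the test. The 10 genes summed to 529, 524 and 520 TPM with chloride and 499, 536 and 533 TPM with propionate, which overlap. With TPM as deposited the sums were lower in every propionate library, at 576, 519 and 536 TPM with chloride and 485, 518 and 515 TPM with propionate.

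The clamp Pcna encircles DNA and tethers the polymerases, and the RFC complex opens it. Pcna, the most abundant member, stood at 421, 441 and 401 TPM with chloride and 361, 475 and 454 TPM with propionate. Propionate 1 was the lowest of the 6 libraries and propionate 4 the highest, and the log2 difference was 0.02 ± 0.11 (SE), with a 95% interval from -0.24 to 0.28. The loader subunits were lower, from 19.1 TPM for Rfc2, 22.3-fold under Pcna, upward. Rfc2 stood at 18.4, 19.5 and 18.1 TPM with chloride and 21.0, 18.4 and 19.0 TPM with propionate. Rfc3, at chr5:151593257-151651242 in mm10 on the minus strand, had the smallest unadjusted p of any member (0.0531). It stood at 38.7, 41.6 and 36.4 TPM with chloride and 44.0, 41.5 and 45.6 TPM with propionate, or 38.9 ± 2.62 TPM and 43.7 ± 2.08 TPM (SD, n = 3). Propionate 4 lay just below chloride 2, so the groups met, and the log2 difference was 0.16 ± 0.07 (SE), with a 95% interval from -0.00290 to 0.33 and a limma adjusted p of 0.913. Rfc4 stood at 78.4, 69.7 and 68.4 TPM with chloride and 76.7, 79.0 and 77.6 TPM with propionate, with chloride 1 among the propionate libraries and a log2 difference of 0.11 ± 0.07 (SE). All 6 genes of this step were higher by sign after scaling, 2 were higher and 4 lower with TPM as deposited, and none passed the test.

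RPA coats single-stranded DNA at the fork as a complex of 3 subunits, which had similar mean levels, within 1.25-fold. Rpa2 stood at 84.5, 87.2 and 82.9 TPM with chloride and 82.7, 94.0 and 90.3 TPM with propionate. Rpa3, the smallest subunit, stood at 97.1, 102 and 96.6 TPM with chloride and 97.5, 113 and 104 TPM with propionate, with propionate 4 the highest and propionate 1 within the chloride range, and a log2 difference of 0.09 ± 0.07 (SE) that became -0.01 with TPM as deposited. Rpa1, the large subunit, stood at 144, 95.4 and 83.5 TPM with chloride and 92.9, 140.2 and 96.9 TPM with propionate. Chloride 1 and propionate 4 were far above the other 4 libraries, 1 in each group, which gave Rpa1 the widest spread of all members, an SD of 0.33 on the log2 scale. Its log2 difference of 0.05 ± 0.23 (SE) became -0.05 with TPM as deposited and ranged from -0.14 to 0.27 when a library was left out.

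Fen1 trims the flaps of the lagging strand and Lig1 seals the nicks that remain. Fen1, most of whose sequence is shared with an antisense gene, stood at 75.8, 81.0 and 76.0 TPM with chloride and 82.1, 82.9 and 84.4 TPM with propionate, or 77.6 ± 2.97 TPM and 83.1 ± 1.17 TPM (SD, n = 3). Every propionate library was above every chloride one, by a gap narrower than the range within either group. The log2 difference was 0.10 ± 0.05 (SE) (limma unadjusted p = 0.108, adjusted p = 0.913), and with TPM as deposited it was 0.0024. Lig1 stood at 28.7, 24.6 and 32.6 TPM with chloride and 30.4, 24.9 and 28.6 TPM with propionate, with overlapping groups. Its log2 difference of -0.03 ± 0.12 (SE) ranged from -0.13 to 0.07 when a library was left out. Without the models assembled from reads it was -0.55 (limma adjusted p = 0.941). Deoxynucleotides are supplied by ribonucleotide reductase (Rrm1 and Rrm2), thymidylate synthase (Tyms) and thymidine kinase (Tk1). Rrm2, the cell-cycle regulated subunit, stood at 193, 173 and 185 TPM with chloride and 185, 185 and 187 TPM with propionate, and propionate libraries lay close together inside the chloride range. Tyms stood at 44.6, 43.2 and 51.4 TPM with chloride and 51.7, 47.9 and 48.1 TPM with propionate. Chloride 3 was among the propionate libraries and the other chloride libraries were below them. That order was not in the reads of Tyms, estimated from coverage and divided by depth (RPM). These were 81.1, 82.0 and 85.6 with chloride and 81.1, 82.6 and 82.2 with propionate. The SD on the log2 scale was 0.03 in RPM beside 0.10 in TPM. Models assembled from reads carried 66.0% of the level of Tyms and coding models 13.2%. Their part in the TPM order was not tested. The supply genes summed to 453, 427 and 449 TPM with chloride and 460, 451 and 448 TPM with propionate, which overlap. Timeless, which travels with the fork and protects it when it stalls, stood at 26.3, 24.0 and 26.2 TPM with chloride and 25.0, 24.3 and 24.7 TPM with propionate, with a log2 difference of -0.04 ± 0.06 (SE).

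The members were also compared by library. Chloride 3 held the lowest value of 22 of the 49 members (44.9%), against 21.9% of all tested genes, and propionate 4 held the highest value of 17 (34.7%), against 19.8%. Relative to each gene's own mean, the median member was within 0.01 of 0 on the log2 scale in chloride 1 and chloride 2 and at -0.07 in chloride 3. It was at -0.02, 0.05 and 0.02 with propionate, in the order of replicates 1, 4 and 5. Propionate 1 held the highest value of 11 members (22.4%) and the lowest of 10 (20.4%), beside 25.3% and 24.4% of all tested genes. Chloride 3 and propionate 1 had fewer transcript models with any coverage (71452 and 71192) than the others (81178 to 82370). The part of coverage in the members' values was not tested, but in the 4 libraries with more covered models 32 members were higher and 17 lower, and 0 passed the test. Without chloride 3 the split was 28 higher and 21 lower, with a median log2 difference of 0.01, and without propionate 4 it was 31 and 18, with a median of 0.02. Library depth, as bases counted on transcripts, was 8.30 to 10.3 Gb. Scaling factors were 1.09, 0.990 and 1.03 with chloride and 0.971, 0.966 and 0.967 with propionate. Every propionate factor was below every chloride one, so dividing by them raised propionate levels relative to chloride. The labelled cell type was checked by its markers. The 8 glioma and neural progenitor markers summed to 3368 to 3816 TPM with chloride and 3678 to 4020 TPM with propionate. Most of that sum was Vim (2764 to 3402 TPM over the 6 libraries), which many cell types express, followed by Nes (314 to 370 TPM). Sox2 (48.0 to 59.9 TPM) was present, Olig2 (1.15 to 1.96 TPM) and Pdgfra (5.41 to 6.30 TPM) were low, and Gfap (0.547 to 1.31 TPM) was below the filter. The 8 microglia and macrophage markers summed to 1.51 to 1.69 TPM with chloride and 1.79 to 2.29 TPM with propionate, carried by Csf1r, with Itgam, Adgre1 and C1qa at 0 in every library. With TPM as deposited those sums overlapped, at 1.49 to 1.85 TPM and 1.74 to 2.21 TPM. The sums were at most 0.301 TPM for 4 endothelial markers (Kdr at 0) and 0.060 TPM for 4 lymphoid ones (Cd3e at 0). They were 73.9 to 89.9 TPM for 4 neuronal markers, carried by Tubb3 with Rbfox3 and Snap25 at 0, and 76.5 to 100.4 TPM for 5 fibroblast and pericyte markers, carried by Col1a1.

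**Figure D4:**
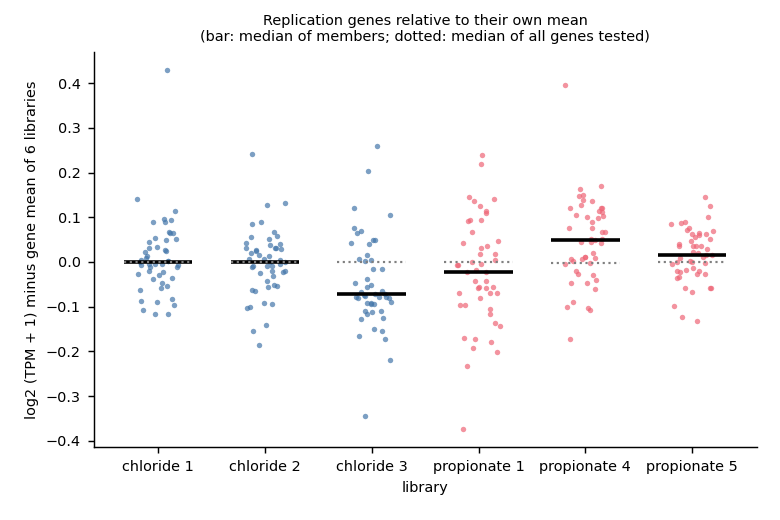
Level of each of the 49 replication genes in each library relative to its own mean over the 6 libraries (points, log2 of TPM + 1), with the median member (bar) and the median of all tested genes (dotted). The median member is lowest in chloride 3 (-0.07) and highest in propionate 4 (0.05), and all tested genes center on 0 in each library.

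For some genes the transcript model that carried the level differed between libraries. The members had 306 reference models and 34 models assembled from reads, and a single model carried over 90% of the level in 19 genes and under 50% in 6. The leading model was protein coding in 46 genes. For Rpa1 the model given most of the level differed between libraries, among 2 coding models that end at different places. The model of 5077 nt (ENSMUST00000092907) stood at 22.3, 94.2 and 82.9 TPM with chloride and 91.5, 39.4 and 94.4 TPM with propionate. The model of 2956 nt (ENSMUST00000000767) stood at 120.1, 0.246 and 0.304 TPM with chloride and 0.162, 100.2 and 1.47 TPM with propionate. Chloride 1 and propionate 4 thus had most of Rpa1 assigned to the short model, and the other 4 libraries had it assigned to the long one. Whether the RNA itself differed, or only the assignment of reads to models, was not tested. Because TPM divides by model length, the same reads give a higher TPM on the short model. Reads of Rpa1, estimated from coverage and divided by depth (RPM), were 251, 255 and 227 with chloride and 246, 259 and 254 with propionate, with an SD of 0.07 on the log2 scale beside 0.33 in TPM. The same pair of libraries stood apart for Fen1, where a model with 3 exons (ENSMUST00000156291) stood at 29.5, 1.33 and 0 TPM with chloride and 0, 30.7 and 2.33 TPM with propionate, without a matching change in the gene's sum.

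Among 161 member transcripts tested with limma, 0 were called at an adjusted p under 0.05 (smallest 0.545), beside 0.0364% of all 35755 transcripts, and 8 had an unadjusted p under 0.05 (4.97%, against 4.62% of all). The groups did not overlap for 23 of them (14.3%, against 12.3%). The smallest p belonged to a coding model of Lig1 (ENSMUST00000098814), which stood at 2.68, 3.09 and 2.78 TPM with chloride and 9.91, 6.09 and 8.85 TPM with propionate, with a log2 difference of 1.28 ± 0.20 (SE). An assembled model of Lig1 with a slightly different first exon stood at 2.80, 3.68 and 3.77 TPM with chloride and 16.4, 9.02 and 7.10 TPM with propionate, with a log2 difference of 1.38 ± 0.31 (SE). Both were higher in every propionate library. A further Lig1 model, a processed transcript (ENSMUST00000156525), stood at 5.76, 3.66 and 22.5 TPM with chloride and 2.76, 3.56 and 5.93 TPM with propionate, highest in chloride 3. These 3 models share most of their exons, so that reads can be assigned to any of them. Another coding Lig1 model (ENSMUST00000165964) stood at 8.78, 12.3 and 0 TPM with chloride and 0.130, 4.88 and 5.52 TPM with propionate. Another processed transcript of Lig1 (ENSMUST00000147735) was lower in every propionate library, at 7.48, 0.929 and 2.11 TPM with chloride and 0.568, 0.548 and 0.172 TPM with propionate. A coding model of Dbf4 (ENSMUST00000002368) stood at 16.1, 14.6 and 17.0 TPM with chloride and 11.4, 10.8 and 9.47 TPM with propionate, lower in every propionate library, while the gene's main model (ENSMUST00000171808) stood at 63.6, 65.8 and 53.5 TPM with chloride and 62.4, 76.8 and 72.2 TPM with propionate. A short Tyms model of 608 nt (ENSMUST00000196872) was listed at 0 in all chloride libraries, and its propionate libraries held 8.49, 3.14 and 1.23 TPM. For Mcm3 the coding model (ENSMUST00000053266) stood at 88.8, 87.0 and 89.5 TPM with chloride and 115, 101 and 93.1 TPM with propionate, and a model that retains an intron (ENSMUST00000185296) stood at 25.0, 26.3 and 17.2 TPM with chloride and 3.78, 10.3 and 21.7 TPM with propionate. The coding model was higher in every propionate library, but the sum of Mcm3 was not.

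**Figure D5:**
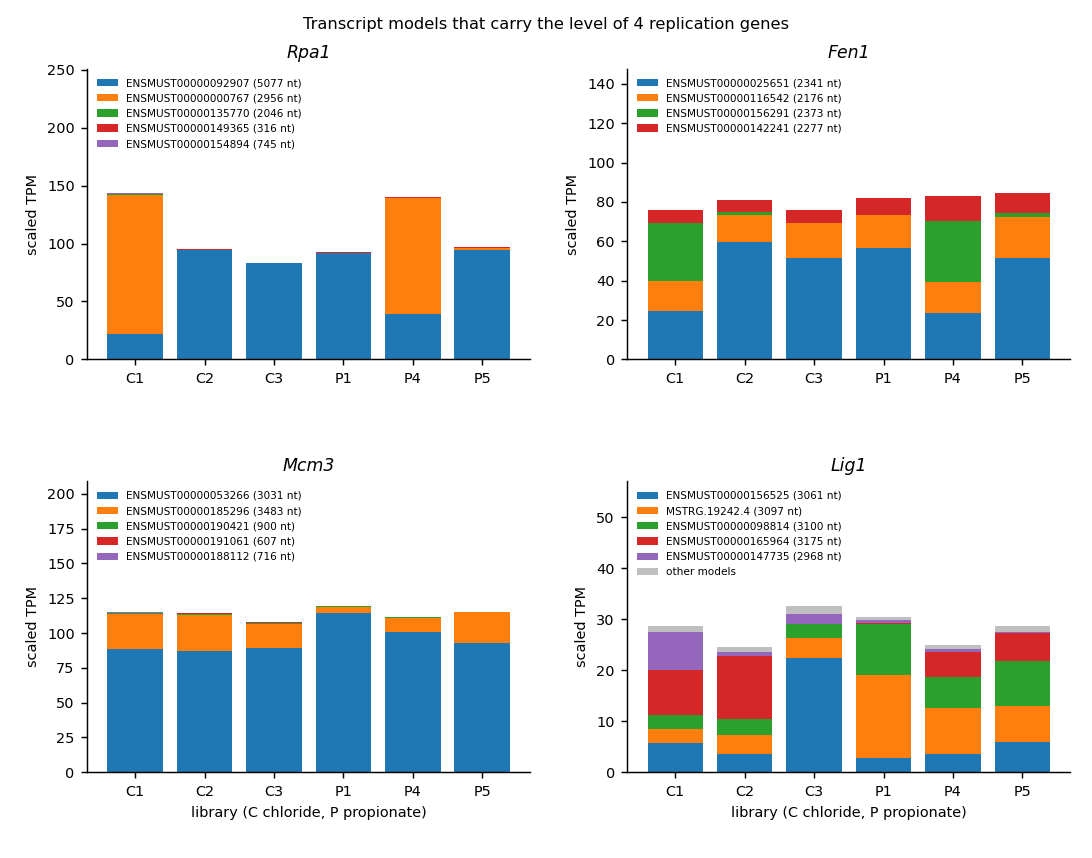
Scaled TPM of the transcript models of Rpa1, Fen1, Mcm3 and Lig1 (stacked bars, 1 color per model, lengths in nt) in chloride 1 to 3 (C1 to C3) and propionate 1, 4 and 5 (P1, P4, P5). The short Rpa1 model and the Fen1 model with 3 exons appear mainly in C1 and P4.

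Some members share sequence with other genes, so that reads may be divided between them. Over stretches of 31 bases, 12 members shared over 10% of their sequence with other genes counted together, and 5 shared none. That share could be spread over many genes, as for Rfc2, where 18.8% was shared across 1675 genes. Fen1 shared 76.8% with the antisense gene Gm10143, Gins2 shared 66.2% with Gse1 and Orc2 shared 27.8% with Nif3l1. Pcna shared 23.3% with the pseudogene Pcna-ps2, which was itself listed at 38.7, 42.8 and 41.8 TPM with chloride and 42.1, 45.7 and 47.8 TPM with propionate. Mcm7 shared 24.4% with the pseudogene Gm5487, and its locus also holds the microRNA genes Mir106b, Mir25 and Mir93. The levels of these genes are uncertain for this reason, but the shared percentage does not measure by how much. Whether the quantification used strand is not stated in the labels or headers.

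Other genes of the pathway, which were not members, were read from the same test. Of 46 symbols, 45 were found and tested, covering fork factors, chromatin assembly, Okazaki fragment processing and nucleotide supply. None passed the test and none had an unadjusted p under 0.05, and by sign 22 were higher and 23 lower (6 and 39 with TPM as deposited). Clspn, which relays the stalled-fork signal, stood at 23.9, 21.4 and 23.0 TPM with chloride and 20.3, 22.8 and 24.5 TPM with propionate, with overlapping groups. Mcm9, a helicase relative that works in repair, had the smallest p, at 11.1, 11.3 and 13.5 TPM with chloride and 10.2, 9.98 and 10.6 TPM with propionate. Its groups did not overlap, and the log2 difference was -0.20 ± 0.09 (SE) (limma unadjusted p = 0.0631, adjusted p = 0.913).

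Genes that control entry into S phase and genes of mitosis gave a measure of the cell cycle around replication. Of 20 G1/S control genes (the E2F family, the retinoblastoma family, cyclins E and A2, Cdk2 and its regulators), 11 were higher and 9 lower by sign (0 and 20 with TPM as deposited), and none passed the test. Cdkn1b, the inhibitor p27, stood at 32.9, 31.1 and 29.8 TPM with chloride and 27.4, 30.9 and 30.3 TPM with propionate, and Ccna2, cyclin A2, stood at 175, 170.5 and 169.8 TPM with chloride and 180.4, 191 and 169 TPM with propionate, both with overlapping groups. Of 20 mitosis genes, 14 were higher by sign and 6 lower (3 and 17 with TPM as deposited), the median gene differed by 0.03 on the log2 scale, and none passed the test. Ube2c, the ubiquitin-conjugating enzyme of mitotic exit, stood at 132, 132 and 141 TPM with chloride and 158, 161 and 138 TPM with propionate, with propionate 5 below chloride 3. Ccnb1, cyclin B1, stood at 157, 163 and 156 TPM with chloride and 167, 181 and 171 TPM with propionate. Its groups did not overlap, and the log2 difference was 0.12 ± 0.06 (SE) (limma unadjusted p = 0.0672, adjusted p = 0.913). The mitosis genes summed to 1999, 1956 and 1944 TPM with chloride and 2069, 2062 and 2012 TPM with propionate, without overlap, while with TPM as deposited the sums overlapped, at 2177, 1936 and 2002 TPM and at 2010, 1991 and 1945 TPM.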

How the data were processed

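Total RNA of 6 GL261 libraries was measured. Per the submitters' processing notes, bcl2fastq, fastp, HISAT2 and StringTie were used with mouse build mm10, and per the file headers StringTie 2.1.1 estimated a common set of 157296 transcript models in each library. Per the file headers, each model has TPM, FPKM and coverage values and no counts. The deposited TPM were used, and the deposited coverage served for depth and for estimated reads of 101 bases.

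From there, models were joined to genes with GENCODE M21 (11710 of 14805 assembled models joined), TPM were summed per gene and each library was divided by its median ratio to the geometric mean. Genes whose longest model was under 200 nt, or whose mean was under 1 TPM, were left out. Limma 3.58.1 in R 4.3.3 tested log2(TPM + 1) with a variance trend, two-sided, without covariates, adjusted by Benjamini-Hochberg over all genes, or over all transcripts for models, at 0.05. Fold changes on this scale understate low genes. The fit was tested on simulated data. Python 3.11.15, pandas 2.3.3, numpy 2.4.6 and matplotlib 3.10.9 were used.

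The members and lists were chosen with earlier results of these data known. Values by library are given for the 6 members with the smallest p in each direction, the 3 widest and 3 narrowest in spread, the highest and lowest of each role, those without overlap between groups, the 2 smallest p of each other list and the 4 smallest among transcripts. Clspn, Pcna-ps2 and the other models of Rpa1, Fen1, Lig1, Dbf4 and Mcm3 were added after their values were seen. A gene that this rule would name is not reported here.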

Additional observations from a re-analysis of the deposited data

How the results depend on the processing

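No member gene passed the threshold under any of 16 alternative gene settings (lowest adjusted p 0.575 with limma), and no member transcript did (lowest 0.303). The count of all genes past the threshold, 1 in the test reported, was 0 with no filter on low values, with protein-coding genes alone and with voom on estimated reads, 2 with a mean of at least 5 TPM, 6 in the 4 libraries with more covered transcripts, and 1 to 4 when 1 library was left out (4 without propionate 1). By sign, 11 members held their direction throughout (Cdc7, Cdt1, Fen1, Gmnn, Orc4, Orc6, Pola2, Pole, Rfc3, Rfc4 and Timeless), and 38 changed it at least once. Of the 11, some came close to 0, since with TPM as deposited Gmnn was at 2.2e-05, Fen1 at 0.0024, Orc6 at 0.013, Rfc4 at 0.013 and Rfc3 at 0.07, and with voom Timeless was at -0.0066. Leaving out 1 library gave -0.31 to -0.06 for Orc4, -0.23 to -0.05 for Pola2, -0.25 to -0.11 for Cdc7, 0.04 to 0.17 for Gmnn, 0.06 to 0.15 for Orc6 and 0.07 to 0.17 for Rfc4. With TPM as deposited the log2 difference was -0.057 for the median member, -0.036 for Prim2, -0.050 for Rpa1 and -0.011 for Rpa3. Quantile normalization gave -0.0083 for Rpa1, and the 4 libraries gave 0.0046 for Lig1, 0.044 for Prim1 and -0.0061 for Rpa1. Leaving out 1 library gave -0.13 to 0.066 for Lig1, -0.12 to 0.031 for Prim1 and -0.14 to 0.27 for Rpa1. Reference models alone gave -0.55 for Lig1, against -0.03 in the test reported. The scaling itself, which divides every chloride library by a larger factor than any propionate library, makes the reversals with TPM as deposited. For the other reversals the cause was not tested. No paired analysis was possible because the groups shared only replicate number 1.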
